A study of Tetranychus urticae with 12 samples.

Results

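Of the 19114 gene IDs in the deposited count table of the spider mite Tetranychus urticae, 101 (0.528%) were read in the London strain and in neither of the strains Trizina and BC2018-14. Read in London meant at least 1 CPM (counts scaled to a common library total) in each of 3 London libraries. Not read elsewhere meant at most 3 counts in each of 4 Trizina and 4 BC2018-14 libraries. The genes were chosen by these counts in London 2, 3 and 4 and in the other strains, so the difference between the strains is a description here and carries no test. The ID ranges tetur11g00500 to tetur11g01200 and tetur06g00900 to tetur06g01400 were left out by rule, but 0 genes in them met the thresholds. "London alone" refers to these 3 strains only. By the same thresholds 11 genes were read in Trizina alone and 3 in BC2018-14 alone. A further 36 were read in Trizina and London but not in BC2018-14, and 10 in BC2018-14 and London but not in Trizina.

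The study measured mRNA of whole, untreated mites by stranded paired-end sequencing. Trizina is a field population from Greece that resists many pesticides, and BC2018-14 and London are susceptible strains, per the labels and the series text. All 3 strains were kept on kidney bean plants without insecticide exposure. The labels list 4 libraries per strain, but the raw table holds only 3 of London. Library totals lay between 26454588 and 30799433 counts for Trizina, 26090006 and 26851943 for BC2018-14, and 29262202 and 39875401 for London. The labels do not tie the libraries of a strain to different cultures. A p-value given here may therefore reflect technical spread alone.

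Tetranychus urticae is a plant feeder with many hosts, and its strains differ widely in pesticide resistance and in the copies they carry of detoxification and other gene families. The first reference genome of the species was made from the London strain, and an ID of the form tetur07g02180 gives a scaffold of the assembly and a number along it. An RNA count of 0 does not tell a gene that is not transcribed from one that a strain lacks or carries in a form to which reads do not align, and this was not tested. The files pair no ID with a gene name, and 0 of the 19114 IDs matched a table of 14930 RefSeq genes, so the genes are described by ID, level and place, without roles.

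Levels of the 101 genes in London spanned more than 3 orders of magnitude, with few genes at the top. Mean CPM over the 3 London libraries ran from 1.18 to 2029, with a median of 5.31. Only 5 genes averaged at least 100 CPM, 28 lay between 10 and 100 CPM, 18 between 5 and 10 CPM, and 50 under 5 CPM. Together the genes took 9.13e-05 ± 2.8e-05% of all counts in Trizina (SD, n = 4), 5.09e-05 ± 1.36e-05% in BC2018-14 (SD, n = 4) and 0.349 ± 0.0672% in London (SD, n = 3). A single gene, tetur30g01850, held 58.1% of the London counts of the whole set, and the 7 highest genes held 79.4%. Without tetur30g01850 the share in London was 0.146 ± 0.0134% (SD, n = 3).

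**Figure D1:**
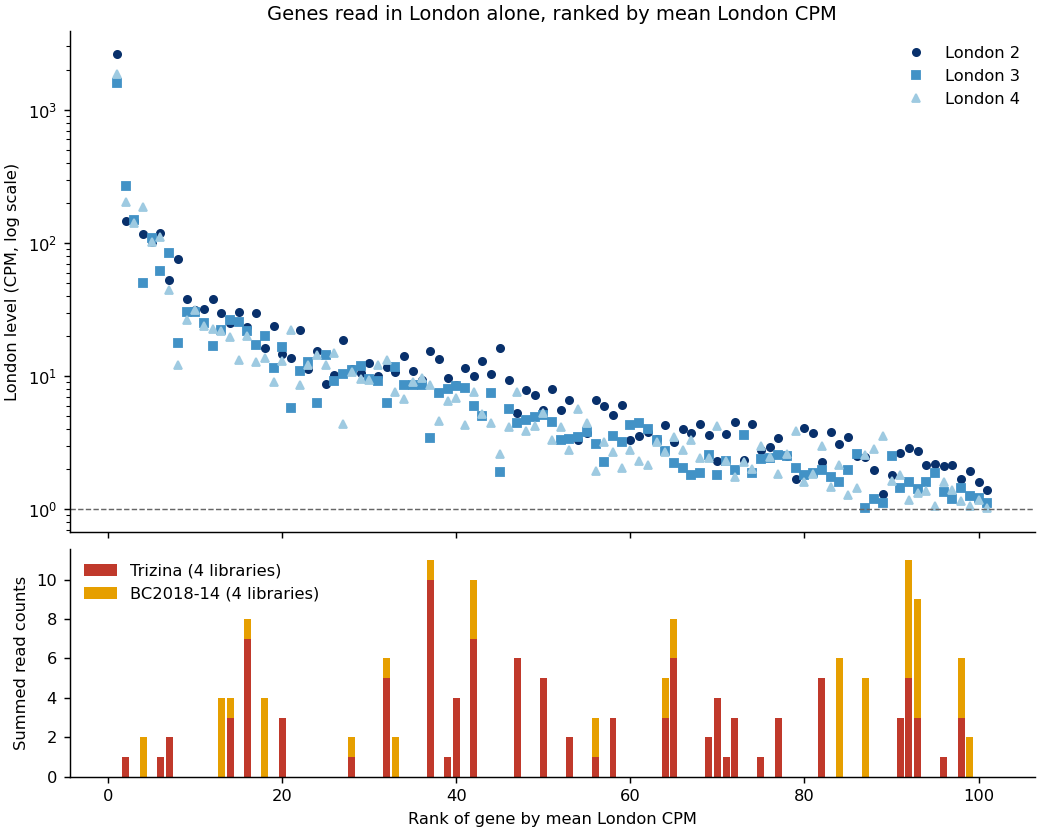
Upper panel: CPM (log scale) of the 101 genes in London libraries 2, 3 and 4, ranked by their mean, with the threshold of 1 CPM as a dashed line. Lower panel: read counts of the same genes summed over 4 Trizina and 4 BC2018-14 libraries, stacked; no gene has more than 10 summed counts in Trizina or more than 6 in BC2018-14.

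Most of these genes had no read at all outside London. In 63 of the 101, all 8 Trizina and BC2018-14 libraries were at 0 counts. Reads were found in Trizina only for 19 genes, in BC2018-14 only for 7, and in both for 12. Summed over all 101 genes there were 105 reads in the 4 Trizina libraries, 54 in the 4 BC2018-14 libraries and 341506 in the 3 London libraries. The most reads outside London, 11, were found for tetur05g05600 and tetur14g04180. Of these, tetur05g05600 had 2, 3, 2 and 3 counts in Trizina and 0, 1, 0 and 0 in BC2018-14, against 455, 102 and 341 counts in London. London exceeded Trizina 103-fold for this gene (exact 95% interval for counting error 55.9 to 216, no test, since the rule used these counts). Its mean in London was 9.18 CPM with all 3 libraries, 6.001 CPM without London 2 and 12.05 CPM without London 3, so the ratio depends on the libraries taken. In London 5, scaled as described below, the gene had 19.5 CPM equivalent. The other, tetur14g04180, had 2, 0, 2 and 1 counts in Trizina and 2, 2, 0 and 2 in BC2018-14, against 85, 47 and 47 counts in London. Its stray reads were thus spread over both other strains, while those of tetur05g05600 were nearly all in Trizina.

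The abundant end of the list was dominated by tetur30g01850. It had 0 counts in every Trizina and BC2018-14 library and 76969, 47086 and 74287 counts in the London libraries, or 2630, 1593 and 1863 CPM. Against a floor of 3 counts in each library, its level was at least 19120-fold lower in Trizina and at least 17922-fold lower in BC2018-14 than in London. The second gene, tetur18g03040, had 1 count in 1 Trizina library, none in BC2018-14, and 146.8, 268.8 and 202.9 CPM in London. The London libraries were uneven, highest in London 3, and all lay far above every library of the other strains.

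Below them, tetur20g01860 and tetur33g01330 were even across London. The first had 0 counts in all 8 other libraries and 145.4, 148.5 and 142.4 CPM in London, a level at least 1371-fold lower in Trizina and at least 1285-fold lower in BC2018-14. The second also had 0 counts elsewhere and 101.7, 109.3 and 102.3 CPM in London, at least 985-fold lower in Trizina and at least 923-fold lower in BC2018-14. By contrast tetur32g00940, with 0 counts in Trizina and 2 counts in BC2018-14, had 116.5, 49.8 and 185.6 CPM in London. The ratio of London to BC2018-14 was 6597, with an exact 95% interval for counting error of 1826 to 54476. The rule had chosen the gene by these counts, so the interval is no test of the strains.

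A further 3 of the 10 highest genes had no read outside London. They were tetur22g03073 at 35.2 ± 35.3 CPM in London (14.8 CPM without London 2), tetur04g02810 at 31.6 ± 5.79 CPM and tetur07g02240 at 31.1 ± 0.697 CPM (SD, n = 3). The remaining pair had 1 or 2 counts in Trizina and none in BC2018-14: tetur05g92600 averaged 97.4 ± 31.5 CPM in London and tetur28g01030 averaged 60.5 ± 21.1 CPM (SD, n = 3).

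Genes at the edge of the definition show how it divides a continuous range. Just inside were tetur17g02360, tetur04g08000 and tetur05g04550, whose lowest London library had 1.01, 1.03 and 1.05 CPM. Just outside, tetur21g03327, tetur03g00160 and tetur31g01900 had 0.991, 0.981 and 0.981 CPM in their lowest London library and at most 3 counts in any other. A further 22 genes met the London threshold but reached 4 or 5 counts in a library of another strain. The highest of them was tetur24g02490, which had at most 3 counts in Trizina, at most 5 in BC2018-14 and 484.8 ± 5.39 CPM in London (SD, n = 3). Its London level would have been second in the list. Next among them were tetur06g91374 and tetur26g00430, at 43.2 ± 14.3 and 28.4 ± 10.1 CPM in London, each with 5 counts in Trizina library 7.

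London library 5 offered counts that the rule had not used. Its column was not in the raw table, but a comparison table (the authors' deposited table, Trizina over London) gives its counts for the 1458 genes listed there. All 101 genes were listed, and all had a negative log2 fold change of Trizina over London in the authors' deposited table, with a median of -9.60. Of all 1458 genes listed, 865 had a negative value. The authors' values rest on the same Trizina and London counts that the rule used. Their sign in the set was thus fixed in advance and is no support. The listing also used London 5, so the London 5 counts are a repeat measurement of listed genes and not an independent draw. The total of London 5 is unknown, and it was scaled so that the median listed gene outside the set matched the mean CPM of the other 3 London libraries.

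On that scale 99 of the 101 genes had at least 1 CPM equivalent in London 5. The exceptions were tetur20g02020 with 22 counts and tetur04g08000 with 18 counts, both among the lowest genes in the other London libraries. Raw counts in London 5 ran from 18 to 63058, with a median of 156. The ratio of London 5 to the mean of the other London libraries had a median of 0.980 and lay between 0.5 and 2 for 96 genes (95%), against 91.1% of 1230 other listed genes. Its value lay inside the range of libraries 2, 3 and 4 for 68 genes (67.3%), against 63.5% of the other listed genes. Those other genes needed only a count in each of London 2, 3 and 4, whereas the set had at least 1 CPM there. The shares are therefore not matched for level. The gene farthest above the others was tetur06g03360 at a ratio of 2.74, and the farthest below was tetur58g00040 at 0.453. Thus nearly all of the 101 genes were read at a similar level in London 5, as were most of the other listed genes. The listing had used London 5, so part of this likeness may come from the choice of genes listed.

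**Figure D2:**
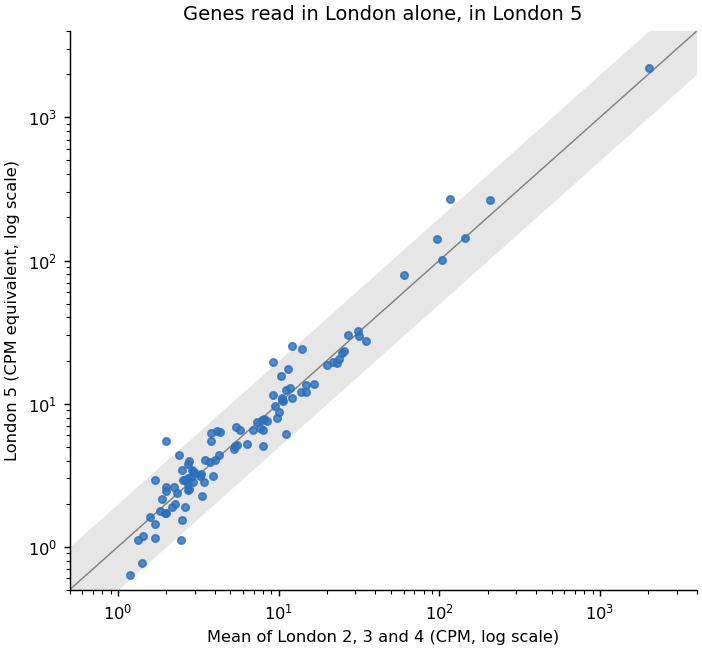
Level of each of the 101 genes in London 5 (CPM equivalent, log scale) against its mean in London 2, 3 and 4 (CPM, log scale). The line marks equality and the grey band 0.5 to 2 times; 96 genes lie inside the band, and tetur30g01850 is at the upper right.

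The London libraries did not hold these genes evenly. London 2 had the highest CPM of the 3 libraries for 66 of the 101 genes (65.3%), whereas it was highest for 39.6% of the 11801 genes with at least 1 CPM in each London library and for 45.8% of the 2671 of them whose mean CPM lay between the quartiles of the set (2.62 to 11.5 CPM). London 4 was the lowest for 56 genes (55.4%), against 33.9% of all such genes. The coefficient of variation over the 3 libraries had a median of 31.1% in the set. It was 15.4% over all genes read in London and 19.5% over the 2671 genes of like level. The highest library was at least 2 times the lowest for 41 genes (40.6%), against 11.5% of all genes read in London and 19.3% of those of like level. The rule asked for no evenness above 1 CPM, and whether this spread is biological or technical was not tested.

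A pair of genes on scaffold 22 varied most among those with at least 5 CPM. In London libraries 2, 3, 4 and 5, tetur22g02790 had 16.2, 1.89 and 2.61 CPM and 6.54 CPM equivalent. For tetur22g03073 the same libraries had 75.9, 17.6 and 12.1 CPM and 27.6 CPM equivalent. In both, London 2 was far above the others and London 5 was second. The steadiest at that level were tetur20g01860, with a coefficient of variation of 2.09%, and tetur07g02240, with 2.24%.

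**Figure D3:**
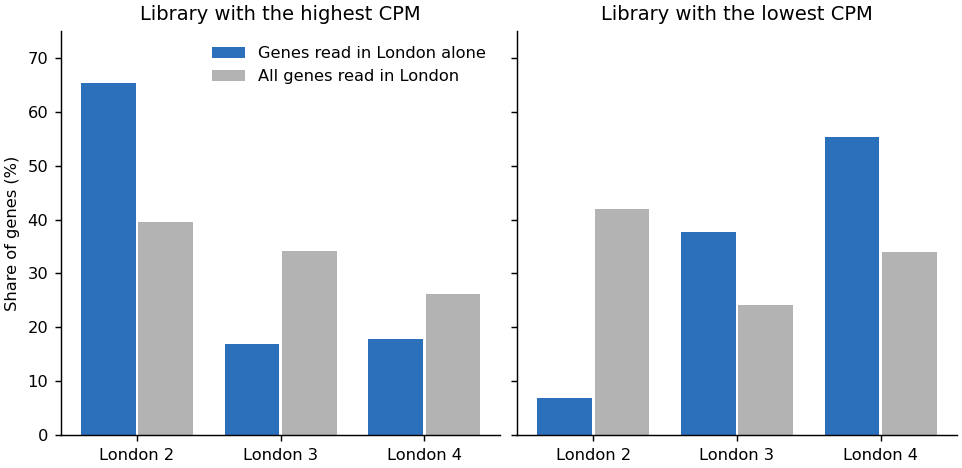
Share of genes (%) for which each of London libraries 2, 3 and 4 had the highest CPM (left) or the lowest CPM (right), for the 101 genes read in London alone and for all 11801 genes read in London. London 2 is highest for 65.3% of the set and lowest for 6.93%, against 39.6% and 42% of all genes read in London.

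The genes were scattered over much of the assembly. They lay on 32 of the 417 scaffolds in the table, and 10 of these scaffolds held a single one. Scaffold 2 had 12, scaffold 1 had 11 and scaffold 7 had 7, whereas 3 large scaffolds of at least 300 IDs, numbers 11, 16 and 19, had none. As a share of a scaffold's IDs, scaffolds 30 and 23 had 2.04% and 2.03%, compared with 0.528% over the whole table. Shares were higher only on scaffolds with few IDs, such as scaffold 58 (2 of 16 IDs, 12.5%) and scaffold 40 (1 of 35 IDs, 2.86%). Small scaffolds of at most 10 IDs held 3 of the genes (2.97%), against 3.82% of all IDs. Among these were tetur243g00010 and tetur645g00010, each the only ID of its scaffold in the table. IDs numbered 90000 and above, which stand apart from the regular numbers, made up 13 of the 101 genes (12.9%), 9.22% of all IDs and 2.75% of the genes read in London.

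Few of the genes were direct neighbours, but many stood close together. Among the 88 genes with regular numbers, 10 formed 5 runs of 2 adjacent IDs: tetur20g01850 and tetur20g01860, tetur07g02180 and tetur07g02190, tetur14g00070 and tetur14g00080, tetur23g00470 and tetur23g00480, and tetur06g02030 and tetur06g02040. No run was longer. With positions up to 5 IDs apart counted as close, 29 genes fell into 12 groups, and with up to 10 IDs, 37 genes fell into 15 groups. That left 51 genes more than 10 IDs from any other. Without London library 3 in the rule there were 8 runs instead of 5, since more genes passed.

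Scaffold 7 held the largest group, 6 genes among the 19 IDs from tetur07g02180 to tetur07g02420. The first 8 of these IDs, up to tetur07g02250, had 0 counts in every Trizina and BC2018-14 library, and 7 of them had reads in London. The genes tetur07g02180, tetur07g02190, tetur07g02210 and tetur07g02240 had 9.21 ± 0.586, 11.5 ± 3.11, 1.33 ± 0.236 and 31.1 ± 0.697 CPM (SD, n = 3). Between them tetur07g02220 reached 1.56 ± 0.688 CPM and missed the rule in 1 library, tetur07g02230 and tetur07g02250 had 0.0932 and 0.423 CPM, and tetur07g02200 had no read in any strain. Just before the stretch reads were found in all strains: tetur07g02170 averaged 23.0 ± 4.62 CPM in the 4 Trizina libraries, 15.4 ± 1.81 CPM in the 4 of BC2018-14 and 18.6 ± 2.13 CPM in the 3 of London (SD). Just after it, tetur07g02270 had 0, 2, 2 and 0 counts in Trizina, 0, 0, 1 and 7 in BC2018-14, and 313, 250 and 248 in London. It missed the set through the single BC2018-14 library with 7 counts.

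On scaffold 14 the picture was alike. The 7 IDs from tetur14g00060 to tetur14g00120 had 0 counts in all Trizina and BC2018-14 libraries, and 5 of them were read in London. The members of the set there, tetur14g00070, tetur14g00080 and tetur14g00110, averaged 7.71 ± 4.48, 2.50 ± 1.39 and 5.49 ± 2.14 CPM in London (SD, n = 3), each highest in London 2. The IDs between them, tetur14g00090 and tetur14g00100, had 0.981 and 0.730 CPM in London. Next along the scaffold, tetur14g00130 averaged 2.37 ± 0.985 CPM in Trizina, 2.29 ± 0.502 CPM in BC2018-14 and 2.36 ± 0.542 CPM in London, so the strains overlapped there.

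Scaffold 20 differed in that the pair was sharply bounded. The genes tetur20g01850 and tetur20g01860 had 0 counts elsewhere and 23.1 ± 8.87 and 145.4 ± 3.03 CPM in London (SD, n = 3). On one side tetur20g01840 averaged 64.8 ± 23.4 CPM in Trizina, 9.03 ± 3.17 CPM in BC2018-14 and 15.2 ± 5.05 CPM in London. It was higher in Trizina than in London, with a log2 fold change of 1.91 ± 0.375 (SE; adjusted p = 0.00234, edgeR's quasi-likelihood test). On the other side tetur20g01870 had 41.7 ± 3.12, 40.1 ± 3.16 and 19.6 ± 4.79 CPM in Trizina, BC2018-14 and London.

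On scaffold 30 genes of the set stood on both sides of a gene read everywhere. Here tetur30g01850, tetur30g01880 and tetur30g01900 averaged 2029 ± 538, 25.7 ± 10.7 and 2.27 ± 0.75 CPM in London (SD, n = 3). Within the same 6 IDs tetur30g01870 averaged 17.7 ± 1.53 CPM in Trizina, 13.1 ± 3.67 CPM in BC2018-14 and 14.0 ± 6.16 CPM in London, and the strains overlapped. The ID before tetur30g01850, tetur30g01840, was read in every library but much less outside London, at 3.11 ± 0.982 CPM in Trizina, 1.06 ± 0.765 CPM in BC2018-14 and 84.1 ± 22.2 CPM in London. Its log2 fold change relative to London was -4.94 ± 0.420 in Trizina and -6.56 ± 0.466 in BC2018-14 (SE; adjusted p = 6.46e-06 and 1.43e-06, edgeR's quasi-likelihood test).

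On scaffolds 6 and 23 an ID beside each adjacent pair was well read in all strains, and on scaffold 23 this held for both sides. Both tetur06g02030 and tetur06g02040 had 0 counts elsewhere and 4.32 ± 1.13 and 2.93 ± 1.01 CPM in London (SD, n = 3). The ID before them, tetur06g02020, averaged 12.9 ± 1.81 CPM in Trizina, 6.86 ± 2.79 CPM in BC2018-14 and 74.0 ± 45.1 CPM in London. It was lower in both other strains, with log2 fold changes of -2.70 ± 0.418 in Trizina and -3.69 ± 0.437 in BC2018-14 (SE; adjusted p = 0.000506 and 6.07e-05, edgeR's quasi-likelihood test). The ID after them, tetur06g02050, was read little outside London, at 0.200 ± 0.133 CPM in Trizina, 0.160 ± 0.0353 CPM in BC2018-14 and 1.46 ± 0.958 CPM in London, and was also called lower in both. The pair tetur23g00470 and tetur23g00480 had 2.24 ± 1.13 and 6.38 ± 2.71 CPM in London and 0 counts elsewhere. Right before the pair, tetur23g00450 averaged 11.9 ± 0.312 CPM in Trizina, 28.9 ± 1.57 CPM in BC2018-14 and 15.7 ± 1.95 CPM in London. Right after the pair, tetur23g00490 averaged 81.3 ± 8.06 CPM in Trizina, 64.5 ± 5.73 CPM in BC2018-14 and 107.7 ± 32.4 CPM in London. Both IDs had log2 fold changes of less than 1 in size, at an adjusted p below 0.05 in both comparisons (edgeR's quasi-likelihood test). Relative to London, tetur23g00450 was at -0.574 in Trizina and 0.628 in BC2018-14, and tetur23g00490 at -0.584 and -0.993.

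Scaffold 1 held a stretch in which Trizina and BC2018-14 parted. The genes tetur01g08070 and tetur01g08100 had 0 counts in Trizina, 4 and 2 summed counts in BC2018-14, and 479, 596 and 542 counts and 314, 348 and 301 counts in London. The IDs between them, tetur01g08080 and tetur01g08090, were also at 0 in every Trizina library but were read in BC2018-14. For tetur01g08080 the means were 0.84 ± 0.33 CPM in BC2018-14 and 1.41 ± 0.412 CPM in London, with an adjusted p of 0.059 (edgeR's quasi-likelihood test). For tetur01g08090 they were 1.43 ± 0.233 CPM in BC2018-14 and 0.466 ± 0.201 CPM in London, and it was higher in BC2018-14 by 1.38 ± 0.358 on the log2 scale (SE; adjusted p = 0.0121, same test). All 4 IDs thus lacked reads in Trizina, whereas only the outer pair nearly lacked them in BC2018-14.

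**Figure D4:**
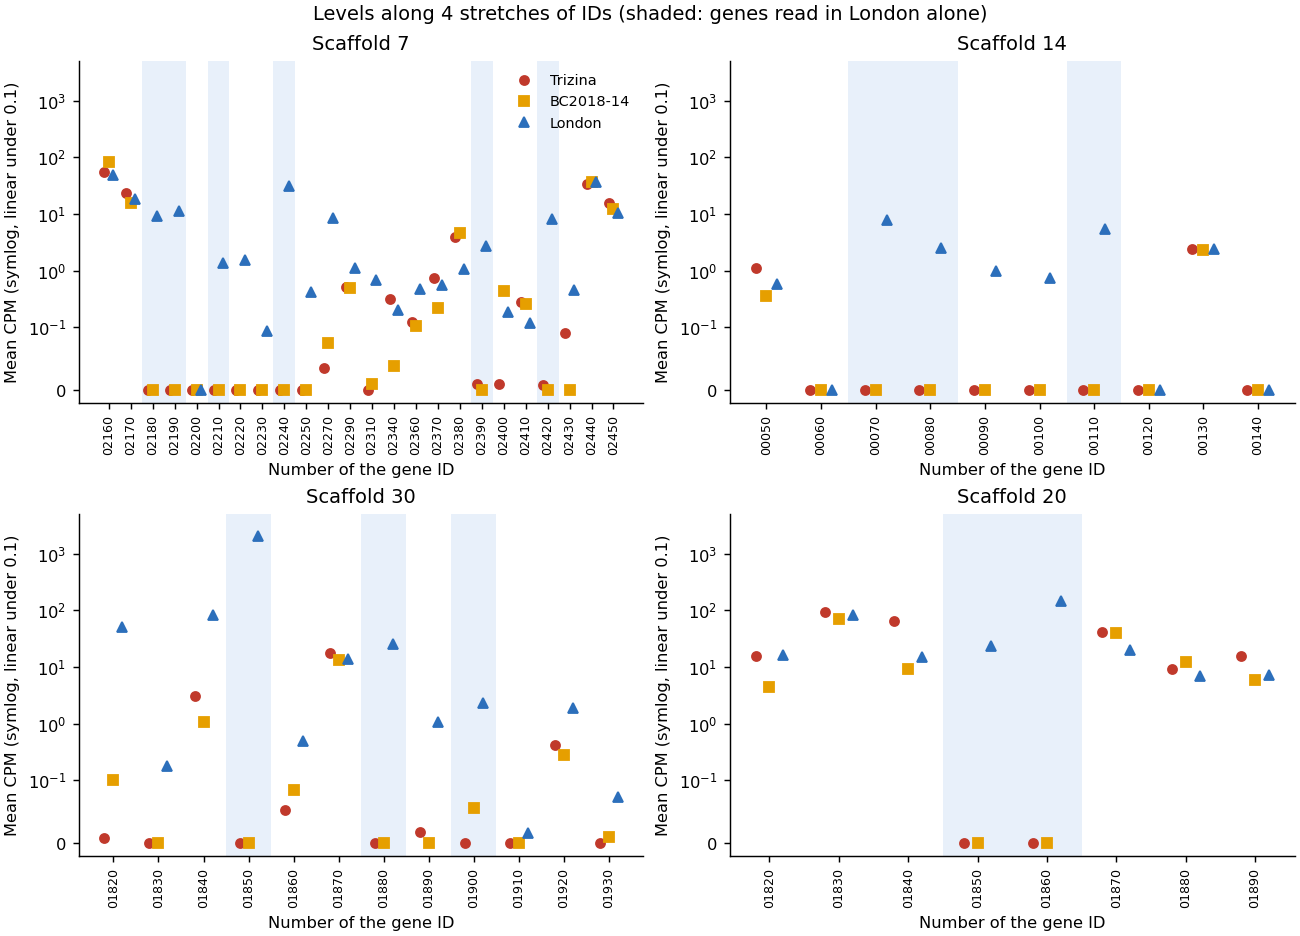
Mean CPM (symlog axis, linear under 0.1) in Trizina, BC2018-14 and London for the IDs in 4 stretches on scaffolds 7, 14, 30 and 20, with genes read in London alone shaded. On scaffold 14, and on scaffold 7 up to tetur07g02250, the unshaded IDs between shaded ones are also at 0 in Trizina and BC2018-14. Farther along scaffold 7 tetur07g02380 is higher in Trizina and BC2018-14 than in London, and on scaffold 30 tetur30g01870 is read at a like level in all strains.

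Genes beside the set were not chosen by its rule and could be tested. Some of them had reads in London alone, and such a gene could only be called lower. The nearest ID on each side that was not itself in the set gave 158 neighbours, of which 106 had enough counts to be tested and 11 had no count in any library. A gene counted as called when it differed from London by at least 1 on the log2 scale at an adjusted p below 0.05 (edgeR's quasi-likelihood test over 14394 genes). Of the 106 neighbours, 36 (34%) were lower in Trizina than in London, where 9.96% of all genes tested were. In BC2018-14, 38 (35.8%) were lower than in London, where 14% of all genes tested were. Calls in the other direction were near the background: 6 neighbours (5.66%) were higher in Trizina, against 7.62% of all genes, and 8 (7.55%) were higher in BC2018-14, against 7.68%. Both comparisons use the same London libraries and are not independent. Of the lower calls, 15 of 36 in Trizina and 14 of 38 in BC2018-14 were genes with at most 3 counts in each library of that strain. Such genes could hardly be called higher there.

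The share of lower genes was smaller farther along the ID order. For genes 2 IDs from the nearest gene of the set, 20.4% of 98 tested were lower in Trizina and 25.5% in BC2018-14. At 3 to 5 IDs the shares were 20.9% and 24.1% of 282 genes, and at 6 to 10 IDs 12.6% and 17.9% of 413. From 11 to 20 IDs they were 10.2% and 13.8% of 795 genes, close to the background. On scaffolds with no gene of the set, 8.88% and 13.2% of 2680 genes were lower in Trizina and in BC2018-14.

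**Figure D5:**
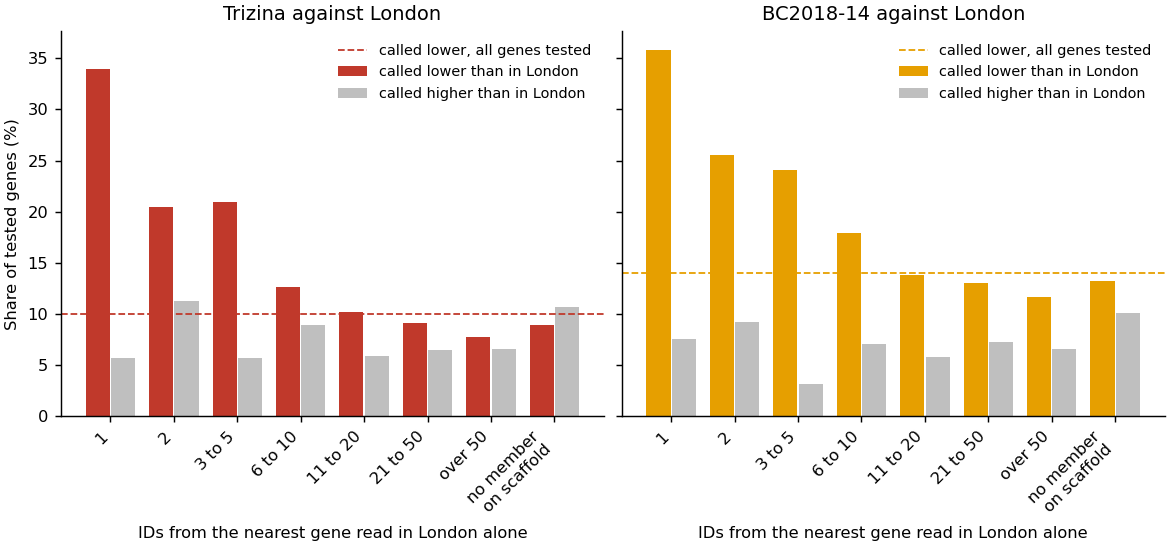
Share of tested genes (%) called lower (coloured) or higher (grey) than in London, by the number of IDs to the nearest gene read in London alone, in Trizina (left) and BC2018-14 (right). Dashed lines mark the share called lower over all genes tested, 9.96% and 14%; the bars for lower genes are tallest at 1 ID, 34% and 35.8%, and reach the lines at 11 to 20 IDs.

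A few of the lower neighbours were near misses of the rule, with at most 3 counts in every library of both other strains. They were the same 7 genes in both comparisons. Of the 36 neighbours lower in Trizina, 15 had at most 3 counts in each Trizina library and 9 averaged at least 1 CPM there. Of the 38 lower in BC2018-14, 14 had at most 3 counts in each BC2018-14 library and 14 averaged at least 1 CPM. Among genes that averaged 1 CPM or more over all libraries, a split chosen after the data had been seen, 17 of 81 neighbours (21%) were lower in Trizina and 21 (25.9%) in BC2018-14. The shares of all genes at that level were 8.01% and 11.9%. Whether neighbours are near-identical copies that share reads with genes of the set was not tested.

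The neighbours with the largest fitted decreases called in both comparisons were themselves almost silent elsewhere. For genes at 0 counts the fitted value is not a measured fold, so this order is no ranking of true differences. Both tetur13g00610 and tetur07g02220 had 0 counts in all Trizina and BC2018-14 libraries, against 81, 50 and 33 counts and 66, 26 and 62 counts in London. For tetur22g00400 there were 0 counts in Trizina, 0, 4, 1 and 0 in BC2018-14, and 332, 332 and 453 in London. A single library with 4 counts kept the last one out of the set.

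In both other strains 3 neighbours were called higher than London and 29 lower, in comparisons that share the London libraries. The share of all genes tested that was called in both is not given here, so these counts have no background. Over all genes tested, lower calls also outnumbered higher ones, 1434 against 1097 in Trizina and 2016 against 1105 in BC2018-14. Of the 3 neighbours called higher, tetur17g02350 had 3.94 ± 0.0931 CPM in Trizina, 3.64 ± 0.276 CPM in BC2018-14 and 0.461 ± 0.131 CPM in London. It stands beside tetur17g02360, a gene of the set with 72, 30 and 101 counts in London. On scaffold 7, tetur07g02380 had 3.97 ± 0.360, 4.58 ± 0.284 and 1.05 ± 0.310 CPM in Trizina, BC2018-14 and London, directly before tetur07g02390, which is in the set. Another, tetur10g05784, had 1.53 ± 0.201, 0.715 ± 0.208 and 0.228 ± 0.0415 CPM in Trizina, BC2018-14 and London. In these cases adjacent IDs differed in opposite directions between London and the other strains.

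Stretches with few or no reads outside London were mostly short. When IDs with at most 3 counts in each Trizina and BC2018-14 library were joined into unbroken stretches, a description chosen after the data had been seen, 77 stretches held a gene of the set. Of these 44 were a single ID, 27 had 2 to 4 IDs and 6 had at least 5. The longest was the 10 IDs from tetur58g00010 to tetur58g00100, with 8 read in London above 3 counts in at least 1 library and 18 stray reads elsewhere. Among all 17352 IDs with regular numbers, 2.65% were read in London above 3 counts and at most at 3 counts elsewhere. Of the 158 neighbours, 22 (13.9%) were.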

How the data were processed

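The authors deposited raw read counts per gene ID. HISAT2 2.1.0, SAMtools 1.10, featureCounts 1.6.0 and edgeR were named, per the submitters' processing notes. Genome build, annotation and strand setting are not given in the sources used here, so overlapping, antisense and near-identical genes are uncertain. The authors' deposited comparison tables hold, beside counts, log2 fold changes, mean log2 CPM, p-values and false discovery rates (per the file headers). The raw table's header names 12 libraries and its lines hold 11 values. Columns were assigned because they equalled the named columns of the comparison tables at all 1458 and 967 genes listed, so London 5 had no column in it.

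CPM was computed here on column totals. The 14394 genes kept by filterByExpr entered a fit of the counts in edgeR 4.0.16 under R 4.3.3 (TMM factors, robust quasi-likelihood fit, strain as the only term, 11 libraries, Benjamini-Hochberg adjustment). All 101 genes of the set passed this filter, through London alone. Standard errors are the log2 fold change over the root of its F statistic. A level at 0 counts was bounded by 3 counts in each library, 0.106 CPM in Trizina and 0.113 CPM in BC2018-14. Ratios with few counts have exact 95% intervals. These cover counting error only, because no molecular identifiers separate molecules from copies. The fit was tested on simulated data. DESeq2 1.42.0, other scalings, filters and left-out libraries were alternatives.

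Neighbours and runs follow the ID numbers, without IDs of 90000 and above, and positions were not checked. The genes, lists and tests were chosen with earlier results of these data known. Genes were named by a fixed rule: the 10 highest in London, the 3 longest runs with their flanks, genes just inside and outside the thresholds, the most and least variable, those with the most stray reads, and the 3 neighbours lowest and highest against London. Other genes of the 7 stretches described, of the runs and with extreme values in London 5 were named after their values were seen.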

Additional observations from a re-analysis of the deposited data

Results flagged for a closer look

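In 59 groups of 4 libraries a library far from the other 3 was looked for, and 7 were found. Chance gives about 1 in 20, but that rate does not hold for groups of 0, 0, 0 and 1 count. Such a group always stands apart by this measure, and 3 of the 7 were of this kind. No excess over chance is therefore read from the 7. The reads of the set summed to 1.33 CPM in Trizina library 4, against 0.798, 0.730 and 0.794 CPM in the other Trizina libraries. These are 41 reads against 20 to 23, so few reads underlie the difference. London 2 stood above the rest for tetur14g00080, at 4.10 CPM, against 1.79, 1.605 and 1.54 in London 3, 4 and 5. London 3 stood below the rest for tetur17g02360, at 1.01 CPM, against 2.46, 2.53 and 2.62. London 3 was also apart for tetur33g01330, at 109.3 CPM, against 101.7, 102.3 and 101.5 CPM in London 2, 4 and 5. The other 3 were genes just outside the thresholds with 1 count in a single library of the strain named: tetur03g00160 and tetur31g01900 at 0.0378 CPM in Trizina library 7, and tetur06g91374 at 0.0377 CPM in BC2018-14 library c. The last of these also had up to 5 counts in Trizina libraries. Their cause was not tested.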

How the results depend on the processing

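The number of genes read in London alone followed the thresholds, with 40 at 5 CPM, 63 at 0 counts elsewhere and 154 at 10 counts elsewhere, against 101. At 0.5 CPM it was 141 and with TMM-scaled CPM 108, and leaving out 1 library gave 102 to 112. Runs of adjacent IDs numbered 6 to 8 when a London library was left out, against 5, and groups at most 5 IDs apart, added after the data were seen, numbered 12. With the 2 nearest IDs on each side, 56 of 204 neighbours (27.5%) were lower in Trizina and 63 (30.9%) in BC2018-14. The counts rose because more genes were taken, but the shares were below the 34% and 35.8% of the nearest IDs. Neighbours that averaged 1 CPM or more gave 17 and 21. Under DESeq2, library size alone, no filter or adjusted p alone the counts were 33 to 53 in Trizina and 35 to 55 in BC2018-14, and 33 to 42 and 38 to 46 with a library left out. The 53 and 55 came without a filter, of 147 neighbours (36.1% and 37.4%), against 9.41% and 13.3% of all genes. With adjusted p alone 43.4% and 46.2% of 106 neighbours were lower, against 19.2% and 24.4% of all genes. With library size alone the median log2 fold change of all genes was 0.17 in Trizina and 0.25 in BC2018-14, against 0.000701 and 0.00108, and that of the neighbours was -0.05 and -0.03. The share of London counts was 0.387% with TMM and 0.311 to 0.375% without a library, but 0.146% without tetur30g01850. No paired analysis was possible because the libraries fitted share fewer than 2 replicate numbers between strains. Depth limits the low end, where 14 genes averaged under 2 CPM in London.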
